A study of Oryza sativa with 18 samples.

Results

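Genes of inducible plant defence were followed in the flag leaves of a rice hybrid and its parents: chitinases, pathogenesis-related (PR) proteins, thaumatin-like proteins and Bowman-Birk protease inhibitors. A gene was a member where its product description contained chitinase, pathogenesis-related, thaumatin or Bowman-Birk, and did not contain transcription factor or transcriptional activator. The rule matched 144 of the 38993 genes listed, and it used no expression value. The hybrid Hanyou73 was sampled under drought and in water, as were its parents Hanhui3 and Huhan7B, which gave 6 groups of 3 RNA-seq libraries. All plants grew under the same field conditions, drought meant that irrigation was stopped early in grain filling, and watered plants were the controls. Each library came from flag leaves pooled over several plants of one plot, so the errors and p-values below measure the spread between such pools.

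Chitinases cut chitin, the polymer of fungal cell walls, and belong to glycoside hydrolase families 18 and 19. PR-1 proteins are small secreted proteins whose transcripts are widely used as markers of salicylate-related defence, thaumatin-like proteins (PR-5) include the osmotins, and PR-10 proteins are intracellular proteins of the Bet v 1 fold. Bowman-Birk inhibitors are small, cysteine-rich proteins that block trypsin-like and chymotrypsin-like proteases, and cereals carry them in seeds and induce them in wounded leaves. Some chitinase-like proteins have no known role against fungi and are instead needed for cellulose in cell walls.

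By product name and protein domain, the 144 members comprised 49 thaumatin-like genes, 33 PR-1 genes, 19 family 19 chitinases, 13 family 18 chitinases, 13 Bowman-Birk inhibitors, 12 genes described as Chitinase CLP, 1 PR-10 gene and 4 others. Of the 144, 47 were listed at 0 in all 18 libraries and 42 others stayed too low to test. The remaining 55 members reached an FPKM (fragments scaled to the length of the gene and the size of the library) of 1 in at least 3 libraries and were tested. The tested members were 15 of the 49 thaumatin-like genes, 6 of the 33 PR-1 genes, 11 of the 19 family 19 chitinases, 9 of the 13 family 18 chitinases, 10 of the 13 Bowman-Birk inhibitors, 1 of the 12 Chitinase CLP-like genes, the PR-10 gene and 2 others. Since FPKM is a value per length of gene, levels can be set side by side between members. Members with a mean of at least 5 FPKM numbered 25.

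Libraries held an estimated 13000000 to 16400000 fragments each, so that an FPKM of 1 for a gene of 900 bases stood for 7.8 to 9.8 fragments. Where a member averaged at least 5 FPKM in a group, the SD between its 3 libraries was 7.9% of the mean in the median of 124 such cases. The 35 leaf blade markers (Rubisco small subunit, Rubisco activase and chlorophyll a-b binding proteins), of which 4 were at 0 throughout, summed to 25139 to 25500 FPKM in droughted and 17665 to 18823 FPKM in watered Hanyou73, against 96312 to 105345 FPKM in Hanhui3 and 60217 to 87550 FPKM in Huhan7B. The hybrid's sum was below that of either parent in both treatments, although RbcS3, a Rubisco small subunit gene, averaged 9194 FPKM in droughted Hanyou73 and 6434 FPKM in droughted Huhan7B. The 28 markers of dividing cells, of which 2 were at 0 throughout, summed to 979 to 3243 FPKM and were highest in watered Huhan7B. Of 53 grain storage markers 29 were at 0 throughout, and the 53 summed to 83.0 to 131 FPKM. Most of that sum was Os05g0116000, with group means of 78.1 to 118 FPKM. Of 26 pollen and flower markers 15 were at 0 throughout. The 26 summed to 35.9 to 40.2 FPKM in Hanyou73 and to 14.8 to 22.9 FPKM in the parents. In leaves taken whole, fewer cells of a type and less RNA per cell cannot be told apart. The part of these differences in the results below was not tested.

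The summed level of all 144 members was higher under drought in Hanyou73 and Hanhui3 and lower in Huhan7B. In Hanyou73 the members summed to 806 ± 8.34 FPKM under drought and 560 ± 9.09 FPKM in water (SD, n = 3 each, as in all sums below). In Hanhui3 the sums were 932 ± 20.3 FPKM under drought and 611 ± 22.8 FPKM in water. In Huhan7B they were 342 ± 13.1 FPKM under drought and 833 ± 18.3 FPKM in water. The ranges of the 3 libraries did not overlap between treatments in any genotype. The 5 most abundant members made up 36.0% of the sum in droughted and 66.5% in watered Hanyou73, 68.6% in droughted and 65.3% in watered Hanhui3, and 42.8% in droughted and 62.5% in watered Huhan7B. RBBI2-2, a bran trypsin inhibitor of the Bowman-Birk class, made up 43.7% of the sum in droughted and 47.1% in watered Hanhui3. Cht8, a family 19 chitinase, made up 6.97% of the sum in droughted and 41.6% in watered Hanyou73. In watered Huhan7B the 5 most abundant members were Cht8, OsPR1b, Cht11, Os12g0629600 and C10728.

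**Figure D1:**
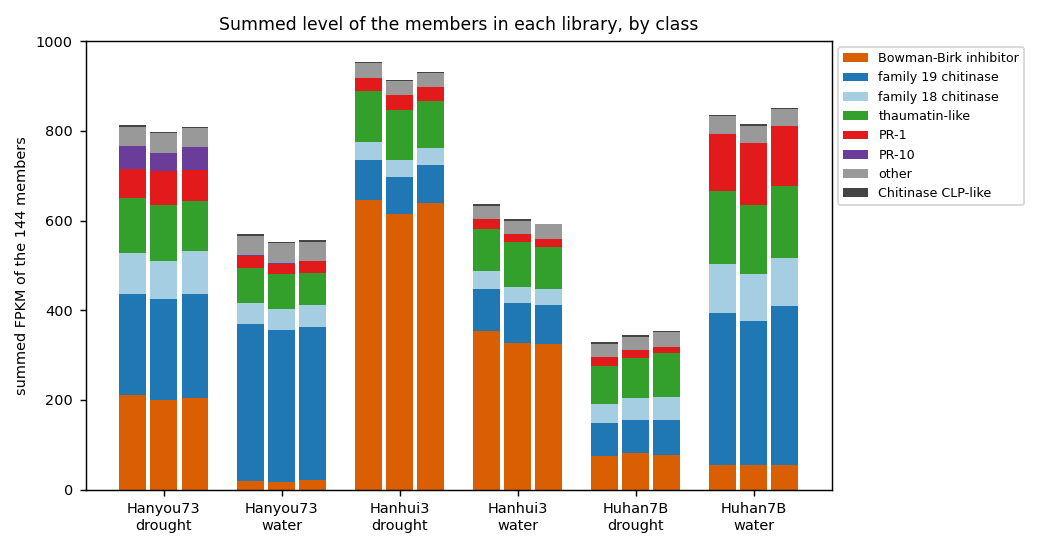
Summed FPKM of the 144 members in each of the 18 libraries, stacked by class; each bar is 1 library, in groups of 3. The Bowman-Birk inhibitors form the largest block in Hanhui3, family 19 chitinases that in watered Hanyou73 and watered Huhan7B, and the whole bar is lowest in droughted Huhan7B, at 328 to 354 FPKM.

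The classes behind these sums differed between genotypes. Bowman-Birk inhibitors summed to 206 ± 6.09 FPKM in droughted and 19 ± 1.43 FPKM in watered Hanyou73, to 633 ± 16.0 and 335 ± 16.4 FPKM in droughted and watered Hanhui3, and to 77.8 ± 2.83 and 55 ± 0.9 FPKM in droughted and watered Huhan7B. PR-1 genes summed to 69.4 ± 5.43 FPKM in droughted and 26.2 ± 1.67 FPKM in watered Hanyou73. In Hanhui3 the PR-1 sums were 31.3 ± 1.04 FPKM under drought and 19.4 ± 2.33 FPKM in water. In Huhan7B they were 16.9 ± 3.33 FPKM under drought and 134 ± 5.93 FPKM in water, the widest gap of any PR-1 sum. Family 19 chitinases were lower under drought in the hybrid, where they summed to 227 ± 4.61 FPKM under drought and 343 ± 7.03 FPKM in water. In Huhan7B they summed to 74.7 ± 3.1 FPKM under drought and 338 ± 16.0 FPKM in water. In Hanhui3 both treatments stayed under 100 FPKM, with ranges that overlapped, 82.8 to 88.6 FPKM under drought and 87.4 to 92.1 FPKM in water. Thaumatin-like genes summed to 120 ± 6.38 FPKM in droughted and 75.5 ± 3.34 FPKM in watered Hanyou73, to 110 ± 4.04 and 96.1 ± 3.45 FPKM in droughted and watered Hanhui3, and to 90.4 ± 7.74 and 159 ± 4.78 FPKM in droughted and watered Huhan7B. Family 18 chitinases summed to 90.5 ± 4.04 FPKM in droughted and 48.1 ± 0.88 FPKM in watered Hanyou73, against 48.4 ± 4.25 and 107 ± 3.32 FPKM in droughted and watered Huhan7B. In Hanhui3 the family 18 ranges overlapped, at 36.9 to 41.0 FPKM under drought and 34.5 to 41.1 FPKM in water.

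How each tested member responded to drought was asked of the fit across all genes. A member was called where its two-sided limma-trend p, adjusted by Benjamini-Hochberg over the 22590 genes tested, was under 0.05. In Hanyou73 36 of the 55 tested members rose under drought and 8 fell, where 45.0% of all genes tested rose and 25.7% fell. In Hanhui3 22 rose and 10 fell, where 35.1% of all genes rose and 18.4% fell. In Huhan7B 14 rose and 17 fell, where 21.2% of all genes rose and 32.1% fell. The members' shares were 65.5% higher and 14.5% lower in Hanyou73, 40.0% and 18.2% in Hanhui3, and 25.5% and 30.9% in Huhan7B, so in the parents they were within 5 percentage points of the shares of all genes. The members' median log2 difference of FPKM + 1 was 0.73 in Hanyou73, 0.19 in Hanhui3 and 0.14 in Huhan7B, beside 0.18, 0.10 and -0.07 over all genes. Drought called most genes of these leaves in one direction or the other, 70.7% in Hanyou73, 53.6% in Hanhui3 and 53.3% in Huhan7B, so a call by itself set no member apart. JIOsPR10, Cht1-Chi1 and Cht2 reached 1 FPKM only in the libraries of droughted Hanyou73. They entered the test through that group, so their rise there, and every count that holds it, is not independent of the filter. Os01g0127600 and Os01g0220900 likewise entered only through droughted Hanhui3 and watered Huhan7B.

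**Figure D2:**
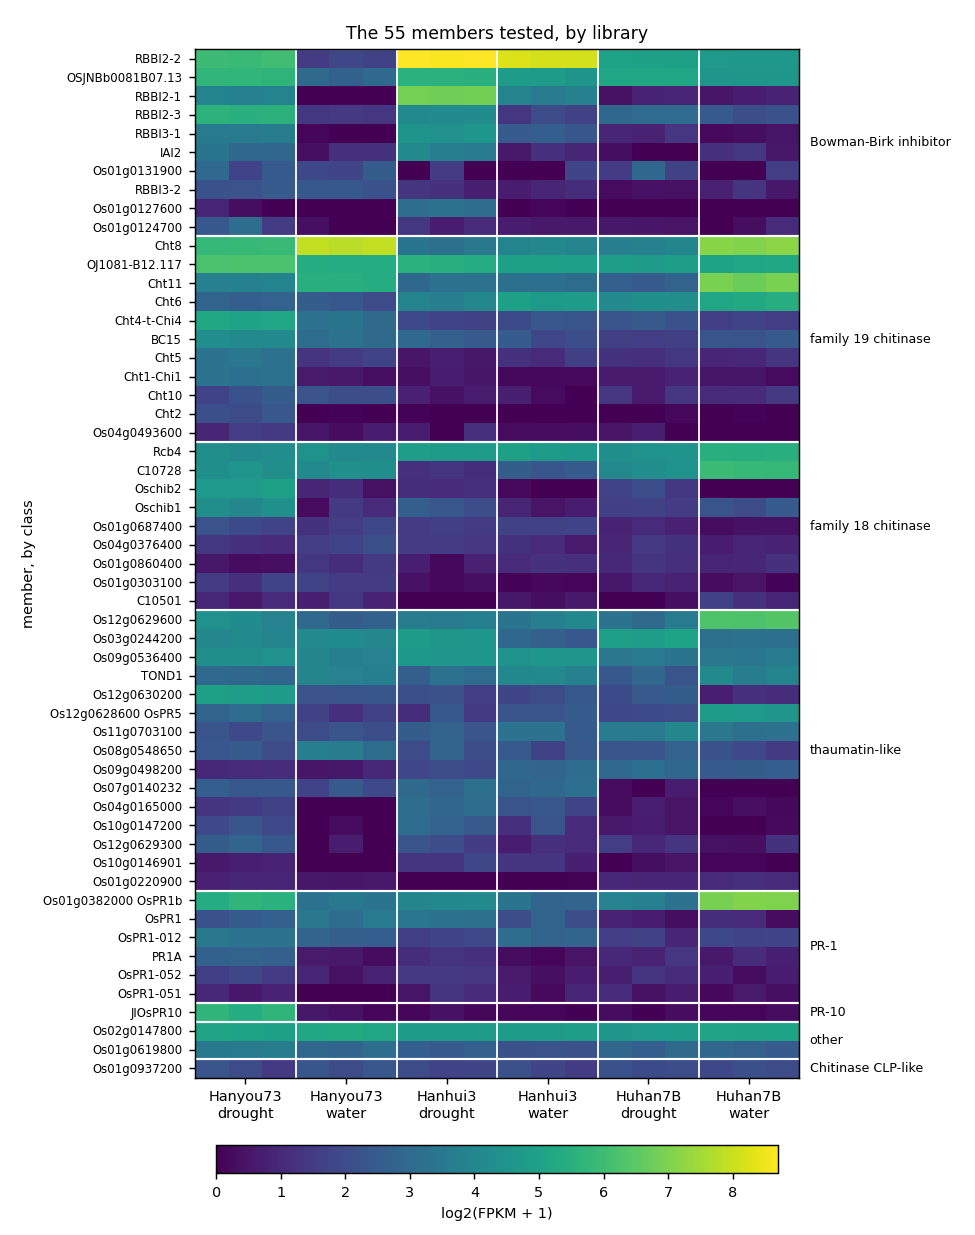
Level of the 55 tested members in each of the 18 libraries, as log2(FPKM + 1), with rows sorted by class and by mean level. RBBI2-2 is brightest in Hanhui3, Cht8 in watered Hanyou73, and JIOsPR10 is dark in every column but the 3 of droughted Hanyou73.

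The 3 drought responses share no library, so calls can be set side by side. Members called in all 3 genotypes numbered 19, in 2 genotypes 18, in 1 genotype 14 and in none 4. The same split over all genes was not counted, so these numbers by themselves set no member apart. Drought raised 7 members in all 3 genotypes (12.7% of the 55, beside 9.04% of all genes): the inhibitors RBBI2-2, RBBI3-1, RBBI2-3 and OSJNBb0081B07.13, the PR-1 gene OsPR1-052 and the chitinases Cht1-Chi1 and Oschib2. Of these 7, OsPR1-052 had 0.66, 1.46 and 1.17 FPKM in droughted and 0.69, 0.22 and 0.6 FPKM in watered Huhan7B, groups that overlapped. Cht1-Chi1 stayed at or under 0.81 FPKM in every parental library. Drought lowered 2 members in all 3 (3.64%, beside 6.2% of all genes), Cht8 and the thaumatin-like gene TOND1. In Hanyou73 9 members rose that fell in Huhan7B (16.4%, beside 9.23% of all genes). They were IAI2, OsPR1b (Os01g0382000), OsPR1-012, Cht6, OJ1081-B12.117, BC15, Oschib1, OsPR5 (Os12g0628600) and Os12g0629600. In Hanyou73 6 members rose that fell in Hanhui3 (10.9%, beside 3.06% of all genes): OsPR1-012, Cht6, Cht4-t-Chi4, Cht5, Os09g0498200 and OsPR5. Of these, Os09g0498200 stayed at or under 1.17 FPKM in Hanyou73, with treatments that overlapped, and OsPR5 overlapped between treatments in Hanhui3. Members that rose in both Hanyou73 and Hanhui3 numbered 19 (34.5%, beside 24.8% of all genes). They include Os01g0127600, which had only 0.87, 0.25 and 0 FPKM in droughted Hanyou73. The pattern lower in Hanyou73 and higher in Huhan7B was called for 0 of the 55 members, beside 3.55% of all genes tested by the same limma-trend fit.

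**Figure D3:**
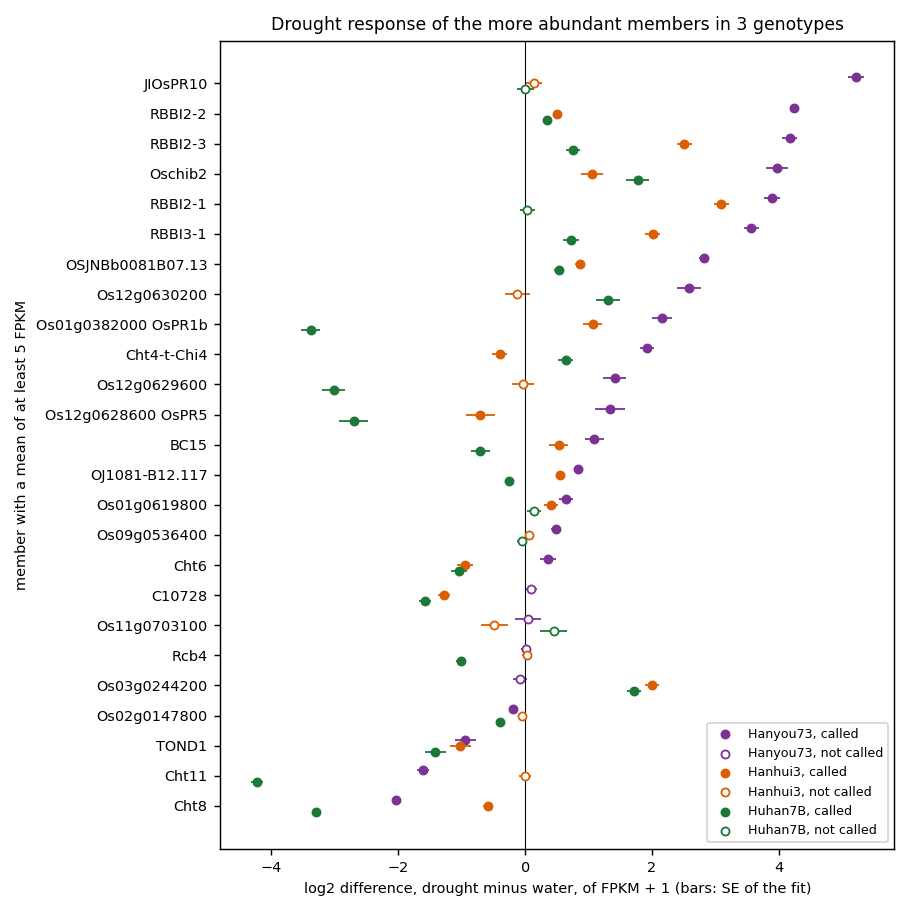
Drought minus water difference on the log2(FPKM + 1) scale for the 25 members with a mean of at least 5 FPKM, one row each, with the SE of the fit; filled points were called by limma-trend and open points were not. JIOsPR10, at 5.21 in Hanyou73, is near 0 in both parents, and OsPR1b, Os12g0629600 and OsPR5 lie right of 0 in Hanyou73 and left of -2 in Huhan7B.

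Bowman-Birk inhibitors were the class with the most even direction. In Hanyou73 8 of the 10 tested members rose and 0 fell, in Hanhui3 7 rose and 0 fell, and in Huhan7B 5 rose and 2 fell, of the same 10. The remaining members did not pass the test. Of all genes 45.0% rose and 25.7% fell in Hanyou73, 35.1% and 18.4% in Hanhui3, and 21.2% and 32.1% in Huhan7B. The 8 include Os01g0127600, at 0.87, 0.25 and 0 FPKM in droughted Hanyou73. It entered the test only through droughted Hanhui3 and is among the 7 there, so that count is not independent of the filter. The 5 in Huhan7B include Os01g0131900, with 1.93, 6.65 and 2.23 FPKM under drought and 0, 0 and 1.97 FPKM in water, groups that overlapped. At its length of 306 bases these values stand for few fragments. The median log2 difference of the 10 was 2.52 in Hanyou73, 1.43 in Hanhui3 and 0.20 in Huhan7B. The RBBI genes lie close together on chromosome 1, where in the RefSeq gene order RBBI2-2 is next to RBBI2-1, and RBBI3-1 is next to RBBI3-3. They share one product description, bran trypsin inhibitor. How reads that match several such copies were assigned is not given in the sources used here, so the split of reads between them is uncertain.

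RBBI2-2 (Os01g0123900) had 61, 56.9 and 65.2 FPKM in droughted and 1.9, 2.63 and 2.32 FPKM in watered Hanyou73. Hanhui3 held 414, 392 and 416 FPKM under drought and 305, 279 and 278 FPKM in water. Huhan7B held 31.8, 30.9 and 30 FPKM under drought and 24.8, 24 and 23.7 FPKM in water. Drought and water did not overlap in any genotype, and Hanhui3 was above both other genotypes in every library. The log2 rise was 4.24 ± 0.07 in Hanyou73 (SE; limma-trend adjusted p = 1.5e-16), 0.50 ± 0.07 in Hanhui3 (limma-trend adjusted p = 1.77e-05) and 0.34 ± 0.07 in Huhan7B (limma-trend adjusted p = 0.00055). The hybrid's mean FPKM was 26.7 times as high under drought as in water. The hybrid's response exceeded the mean of the parents' responses by 3.82 ± 0.08 (limma-trend adjusted p = 2.17e-14), and the difference between the parents' responses did not pass the same test (Hanhui3 minus Huhan7B 0.16 ± 0.10, interval -0.05 to 0.37). Even so, droughted Hanyou73 stayed 0.88 ± 0.06 log2 units below the mid-parent, the mean of the parents on the log2 scale (limma-trend adjusted p = 2.16e-09), and watered Hanyou73 4.70 ± 0.06 below it (limma-trend adjusted p = 2.24e-18).

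RBBI2-1 (Os01g0124000), the neighbour of RBBI2-2, was listed at 0 in all 3 watered Hanyou73 libraries. Under drought it had 14.2, 13.3 and 14 FPKM in Hanyou73. In Hanhui3 it had 118, 112 and 115 FPKM under drought and 13.8, 11 and 13.2 FPKM in water, and in Huhan7B it stayed at or under 0.88 FPKM in all 6 libraries. A gene listed at 0 in water gives no fold, and the fitted Hanyou73 value depends on the pseudocount of 1. The Hanhui3 rise was 3.09 ± 0.12 (limma-trend adjusted p = 2.09e-11), and the Huhan7B difference of 0.04 ± 0.12 did not pass the test (limma-trend adjusted p = 0.841). RBBI3-1 (Os01g0124200) followed the same order. It had 10.8, 11.1 and 11.7 FPKM in droughted Hanyou73 and at most 0.09 FPKM in watered Hanyou73, against 21.6, 20.2 and 22.7 FPKM in droughted and 4.65, 5.14 and 4.05 FPKM in watered Hanhui3. In Huhan7B it reached 0.92, 0.84 and 1.59 FPKM under drought and 0.17, 0.24 and 0.41 FPKM in water.

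RBBI2-3 (Os01g0124650), whose overexpression is known to raise resistance of rice to blast fungus, was highest in droughted Hanyou73. It had 48.4, 45.5 and 46.9 FPKM in droughted and 1.67, 1.71 and 1.62 FPKM in watered Hanyou73. It had 16.8, 17.4 and 17.4 FPKM in droughted and 1.61, 2.93 and 2.22 FPKM in watered Hanhui3, and 6.52, 7.23 and 7.19 FPKM in droughted and 4.48, 3.25 and 3.55 FPKM in watered Huhan7B. Drought and water did not overlap in any genotype. The log2 rise was 4.17 ± 0.12 in Hanyou73, 2.50 ± 0.12 in Hanhui3 and 0.75 ± 0.12 in Huhan7B (limma-trend adjusted p = 5.66e-14, adjusted p = 1.32e-10 and adjusted p = 5.83e-05). Droughted Hanyou73 lay above both parents, by 1.40 on the log2 scale from Hanhui3, the nearer one.

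**Figure D4:**
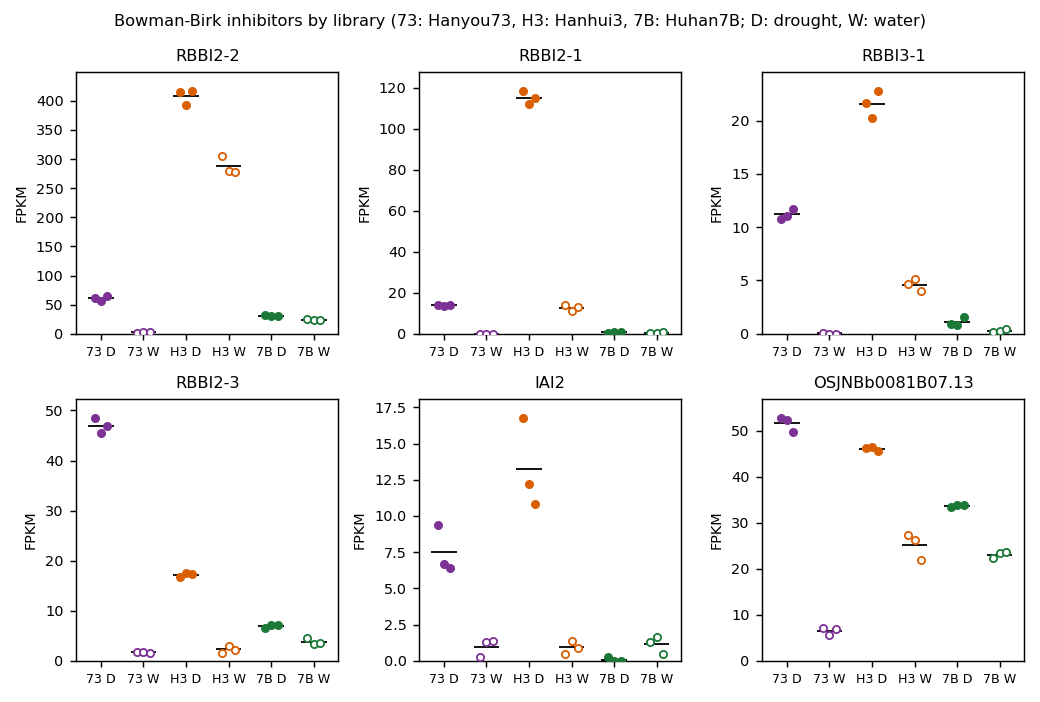
FPKM of 6 Bowman-Birk inhibitors in each library, with each panel on its own linear axis from 0; points are libraries (filled for drought, open for water) and lines are means of 3. In each panel droughted Hanyou73 is above watered Hanyou73, and droughted Hanhui3 is the highest group for RBBI2-2, RBBI2-1, RBBI3-1 and IAI2.

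OSJNBb0081B07.13 (Os03g0823400), a trypsin inhibitor gene on another chromosome, had 52.7, 52.4 and 49.7 FPKM in droughted and 7.12, 5.57 and 6.89 FPKM in watered Hanyou73. Hanhui3 held 46.2, 46.5 and 45.6 FPKM under drought and 27.3, 26.2 and 21.8 FPKM in water. Huhan7B held 33.5, 33.8 and 33.8 FPKM under drought and 22.4, 23.3 and 23.6 FPKM in water. Watered Hanyou73 was the group that stood low, and drought and water did not overlap in any genotype. The rise was 2.81 ± 0.08 in Hanyou73, 0.86 ± 0.08 in Hanhui3 and 0.53 ± 0.08 in Huhan7B (limma-trend adjusted p = 4.47e-14, adjusted p = 2.25e-07 and adjusted p = 3.23e-05). Watered Hanyou73 lay 1.68 log2 units below the nearer parent. IAI2 (Os01g0132000), described as a wound-induced inhibitor of the WIP1 type known from maize, rose in Hanyou73 and Hanhui3 and fell in Huhan7B. It had 9.41, 6.69 and 6.39 FPKM in droughted and 0.28, 1.29 and 1.34 FPKM in watered Hanyou73, and 16.8, 12.2 and 10.8 FPKM in droughted and 0.5, 1.39 and 0.9 FPKM in watered Hanhui3. In Huhan7B it stayed low, with 0.24, 0 and 0 FPKM under drought and 1.28, 1.63 and 0.48 FPKM in water. The parents' responses differed by 3.84 ± 0.37 (limma-trend adjusted p = 5.37e-07).

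Among the 11 tested family 19 chitinases, 8 rose and 2 fell in Hanyou73, 3 rose and 4 fell in Hanhui3, and 2 rose and 5 fell in Huhan7B. All genes tested rose and fell at 45.0% and 25.7% in Hanyou73, 35.1% and 18.4% in Hanhui3, and 21.2% and 32.1% in Huhan7B. The 8 include Cht1-Chi1 and Cht2, which entered the test only through droughted Hanyou73, so that count is not independent of the filter. The 2 that fell in the hybrid, Cht8 and Cht11, were also the most abundant of the class in watered Hanyou73. Cht8 (Os10g0542900) had 54.2, 55.7 and 58.5 FPKM in droughted and 238, 224 and 236 FPKM in watered Hanyou73. In Hanhui3 it had 9.49, 8.36 and 10.1 FPKM under drought and 14.2, 15.7 and 13.7 FPKM in water. Huhan7B held 12.2, 13.2 and 14.8 FPKM under drought and 142, 133 and 144 FPKM in water. The groups did not overlap within any genotype, and the fall was 2.03 ± 0.07 in Hanyou73, 0.59 ± 0.07 in Hanhui3 and 3.29 ± 0.07 in Huhan7B on the log2 scale (limma-trend adjusted p = 8.17e-13, adjusted p = 5.1e-06 and adjusted p = 2.3e-14). Although Cht8 fell under drought, droughted Hanyou73 remained above both droughted parents, by 1.99 log2 units from Huhan7B, the nearer one.

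Cht11 (Os03g0132900) separated the parents. It had 13, 13.1 and 14.3 FPKM in droughted and 44.4, 44.1 and 40.8 FPKM in watered Hanyou73. Hanhui3 held 6.71, 8.47 and 8.61 FPKM under drought and 8.23, 8.03 and 7.53 FPKM in water, ranges that overlapped. In Huhan7B it had 5.41, 4.58 and 5.9 FPKM under drought and 122, 107 and 122 FPKM in water. The fall was 1.61 ± 0.09 in Hanyou73 and 4.23 ± 0.09 in Huhan7B (limma-trend adjusted p = 2.31e-10 and adjusted p = 2.08e-14), and the Hanhui3 difference was -0.01 ± 0.09 (limma-trend adjusted p = 0.972, interval -0.20 to 0.19). The parents' responses differed by 4.22 ± 0.13 (limma-trend adjusted p = 1.76e-12). In water Huhan7B exceeded Hanhui3, the difference of Hanhui3 minus Huhan7B being -3.72 ± 0.09, whereas under drought that difference was 0.50 ± 0.09 (limma-trend adjusted p = 7.51e-15 and adjusted p = 0.00019).

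Several family 19 genes that rose in the hybrid were low in both parents. Cht4-t-Chi4 (Os04g0493400) had 35.4, 32.5 and 34.7 FPKM in droughted and 8.63, 9.36 and 7.04 FPKM in watered Hanyou73, while the parents' 12 libraries held 1.99 to 4.36 FPKM. It rose by 1.92 ± 0.12 in Hanyou73 and by 0.64 ± 0.12 in Huhan7B, and fell by 0.40 ± 0.12 in Hanhui3 (limma-trend adjusted p = 6.39e-10, adjusted p = 0.000254 and adjusted p = 0.00925). Cht5 (Os04g0494100), its neighbour in the RefSeq gene order, had 9.05, 10.1 and 8.58 FPKM in droughted and 1.46, 1.93 and 2.44 FPKM in watered Hanyou73, and at most 2.13 FPKM in the parents. It too rose in Hanyou73, by 1.81 ± 0.16, and fell in Hanhui3, by 0.71 ± 0.16 (limma-trend adjusted p = 4.82e-08 and adjusted p = 0.00135). Cht1-Chi1 (Os06g0726200) had 8.98, 7.97 and 8.42 FPKM in droughted Hanyou73 and at most 0.81 FPKM in the other 15 libraries. Cht2 (Os05g0399300) had 3.32, 3.07 and 4.09 FPKM in droughted Hanyou73 and at most 0.13 FPKM elsewhere. Cht1-Chi1 and Cht2 entered the test only through droughted Hanyou73. By their domain annotation Cht1-Chi1, Cht2, Cht5 and Cht6 carry a chitin-binding domain beside the catalytic one.

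Cht6 (Os02g0605900) was the family 19 gene that stood lowest in the hybrid relative to the parents. It had 5.95, 5.04 and 5.61 FPKM in droughted and 4.98, 4.32 and 3.11 FPKM in watered Hanyou73. Hanhui3 held 14.1, 12.1 and 15.3 FPKM under drought and 29.8, 25.7 and 27.2 FPKM in water, and Huhan7B held 16.1, 19.2 and 18.6 FPKM under drought and 34.5, 37.9 and 42.1 FPKM in water. No hybrid library reached the lowest parental one. Cht6 fell by 0.95 ± 0.12 in Hanhui3 and 1.04 ± 0.12 in Huhan7B and rose by 0.36 ± 0.12 in Hanyou73 (limma-trend adjusted p = 1.27e-05, adjusted p = 3.65e-06 and adjusted p = 0.0175), and Hanyou73 was below both parents by 1.18 under drought and 2.49 in water on the log2 scale.

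A pair of family 19 members are described after chitinase-like protein 1 of Arabidopsis, which is known for a role in cellulose synthesis. BC15 (Os09g0494200), which rice needs for the cellulose of its secondary walls, had 18.1, 17 and 16.5 FPKM in droughted and 7.38, 8.39 and 6.97 FPKM in watered Hanyou73. It had 6.85, 5.41 and 4.36 FPKM in droughted and 4.76, 2.64 and 3.28 FPKM in watered Hanhui3, and 2.15, 1.96 and 2.15 FPKM in droughted and 3.82, 3.78 and 4.54 FPKM in watered Huhan7B. OJ1081-B12.117 (Os08g0522500) had 72.1, 74.1 and 74.3 FPKM in droughted and 40.7, 40.3 and 41 FPKM in watered Hanyou73, 46.6, 44.4 and 41.4 FPKM in droughted and 29.8, 30.3 and 29.3 FPKM in watered Hanhui3, and 28.8, 27.1 and 28.8 FPKM in droughted and 31.8, 34 and 35.6 FPKM in watered Huhan7B. The treatments overlapped for BC15 in Hanhui3 and in no other case. BC15 rose by 1.09 ± 0.15 in Hanyou73 and 0.53 ± 0.15 in Hanhui3 and fell by 0.71 ± 0.15 in Huhan7B (limma-trend adjusted p = 9.24e-06, adjusted p = 0.00763 and adjusted p = 0.000904). OJ1081-B12.117 rose by 0.84 ± 0.05 in Hanyou73 and 0.55 ± 0.05 in Hanhui3 and fell by 0.25 ± 0.05 in Huhan7B (limma-trend adjusted p = 2.08e-10, adjusted p = 1.12e-07 and adjusted p = 0.000296). The 5 secondary-wall cellulose synthase genes taken as markers, of which 0 were at 0 throughout, summed to 39.2 to 39.9 FPKM in droughted Hanyou73 and to at most 1.36 FPKM in every other library. Their part in the level of BC15 and OJ1081-B12.117 was not tested.

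Family 18 chitinases had no common direction: 3 of 9 tested rose and 2 fell in Hanyou73, 3 rose and 2 fell in Hanhui3, and 3 rose and 4 fell in Huhan7B. The shares of all genes were 45.0% risen and 25.7% fallen in Hanyou73, 35.1% and 18.4% in Hanhui3, and 21.2% and 32.1% in Huhan7B. The gain in the hybrid came from a pair of genes with close gene numbers on chromosome 10. Oschib2 (Os10g0416800) had 25.3, 25.4 and 30 FPKM in droughted and 0.92, 1.19 and 0.32 FPKM in watered Hanyou73. Hanhui3 held 1.19, 1.12 and 1.24 FPKM under drought and 0.16, 0 and 0 FPKM in water, and Huhan7B held 2.43, 3.3 and 1.69 FPKM under drought, against 0 in all 3 watered libraries. Droughted Hanyou73 was far above every other group. The gene rose by 3.97 ± 0.17 in Hanyou73 and 1.05 ± 0.17 in Hanhui3 (limma-trend adjusted p = 1.03e-11 and adjusted p = 0.000106). It was also called higher in Huhan7B (limma-trend adjusted p = 3.97e-07), where a level of 0 in water gives no fold. Oschib1 (Os10g0416500) had 18.9, 15.3 and 19.6 FPKM in droughted and 0.18, 1.81 and 1.06 FPKM in watered Hanyou73. Hanhui3 held 5.17, 4.15 and 3.14 FPKM under drought and 0.85, 0.37 and 0.6 FPKM in water, and Huhan7B 2.14, 2.2 and 1.84 FPKM under drought and 3.77, 3.1 and 4.66 FPKM in water. It rose in Hanyou73 by 3.31 ± 0.24 and in Hanhui3 by 1.67 ± 0.24, and fell in Huhan7B by 0.65 ± 0.24 (limma-trend adjusted p = 6.18e-09, adjusted p = 3.32e-05 and adjusted p = 0.0343).

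The abundant family 18 genes behaved otherwise. C10728 (Os01g0660200), an acidic endochitinase, had 19.1, 22 and 18.9 FPKM in droughted and 17.1, 19.7 and 19.4 FPKM in watered Hanyou73, groups that overlapped. In Hanhui3 it had 1.26, 1.49 and 1.18 FPKM under drought and 4.95, 4.08 and 4.75 FPKM in water, and in Huhan7B 15.9, 18.3 and 20.8 FPKM under drought and 59.8, 55.3 and 54.8 FPKM in water. It fell by 1.27 ± 0.10 in Hanhui3 and 1.58 ± 0.10 in Huhan7B (limma-trend adjusted p = 2.87e-08 and adjusted p = 1.52e-09), while the hybrid's difference of 0.09 ± 0.10 did not pass the test (limma-trend adjusted p = 0.416, interval -0.12 to 0.29). The hybrid's response exceeded the parental mean by 1.52 ± 0.12 (limma-trend adjusted p = 2.95e-08). Rcb4 (Os10g0416100) averaged 18 ± 0.871 FPKM in droughted and 18 ± 2.12 FPKM in watered Hanyou73 and 27 ± 1.32 and 26.5 ± 2.92 FPKM in droughted and watered Hanhui3 (SD, n = 3 each). In Huhan7B it averaged 20.6 ± 1.09 FPKM under drought and 42.4 ± 0.836 FPKM in water, a fall of 1.01 ± 0.08 on the log2 scale (limma-trend adjusted p = 3.67e-08).

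Of the 33 PR-1 genes 6 were tested, 5 rising and 1 falling in Hanyou73, 4 rising and 1 falling in Hanhui3, and 1 rising and 2 falling in Huhan7B. Beside these counts, 45.0% of all genes rose and 25.7% fell in Hanyou73, 35.1% and 18.4% in Hanhui3, and 21.2% and 32.1% in Huhan7B. The PR-1 gene OsPR1b (Os01g0382000; the same symbol is also given to a second gene ID) was the most abundant of the class in droughted Hanyou73 and watered Huhan7B. It had 41.2, 50.8 and 46.2 FPKM in droughted and 8.78, 10.6 and 9.28 FPKM in watered Hanyou73. Hanhui3 held 15, 15.7 and 16.6 FPKM under drought and 9.16, 6.01 and 6.22 FPKM in water. Huhan7B held 13.3, 13 and 8.51 FPKM under drought and 121, 133 and 130 FPKM in water. Watered Huhan7B was therefore the highest group, droughted Hanyou73 the next, and the other 4 groups stayed at or under 16.6 FPKM. The gene rose by 2.16 ± 0.15 in Hanyou73 and 1.06 ± 0.15 in Hanhui3 and fell by 3.38 ± 0.15 in Huhan7B (limma-trend adjusted p = 3.44e-09, adjusted p = 2.62e-05 and adjusted p = 4.3e-11). The hybrid's response exceeded the parental mean by 3.31 ± 0.18, and Hanhui3's response exceeded that of Huhan7B by 4.44 ± 0.21 (limma-trend adjusted p = 6.41e-10 and adjusted p = 2.67e-10).

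OsPR1-012 (Os01g0382400), separated from OsPR1b by 1 coding gene in the RefSeq order, moved as OsPR1b did in Hanyou73 and Huhan7B and the other way in Hanhui3. It had 10.3, 8.91 and 8.93 FPKM in droughted and 6.16, 5.21 and 5.04 FPKM in watered Hanyou73, 2.07, 2.5 and 2.77 FPKM in droughted and 7.89, 5.9 and 6.22 FPKM in watered Hanhui3, and 1.97, 2.2 and 0.9 FPKM in droughted and 2.66, 2.45 and 2.49 FPKM in watered Huhan7B. It rose in Hanyou73 by 0.68 ± 0.16 and fell in Hanhui3 by 1.15 ± 0.16 and in Huhan7B by 0.43 ± 0.16 (limma-trend adjusted p = 0.00138, adjusted p = 2.22e-05 and adjusted p = 0.0348). The adjacent genes PR1A (Os07g0129200) and OsPR1 (Os07g0129300) went opposite ways in the hybrid. PR1A had 5.44, 5.84 and 5.41 FPKM in droughted and 0.55, 0.52 and 0.21 FPKM in watered Hanyou73 and rose by 2.21 ± 0.15 (limma-trend adjusted p = 3.14e-09). OsPR1 had 3.53, 4.75 and 5.43 FPKM in droughted and 10.2, 7.62 and 11.2 FPKM in watered Hanyou73 and fell by 0.94 ± 0.24 (limma-trend adjusted p = 0.00247). In Hanhui3 both rose. PR1A rose there by 0.92 ± 0.15 (limma-trend adjusted p = 0.00012), and OsPR1 by 1.01 ± 0.24, with 9.7, 9.04 and 8.29 FPKM under drought and 3.21, 5.83 and 3.23 FPKM in water (limma-trend adjusted p = 0.00215). The hybrid's OsPR1 response lay 1.34 ± 0.29 log2 units under the parental mean (limma-trend adjusted p = 0.00111).

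Of the 15 tested thaumatin-like genes, 10 rose and 2 fell in Hanyou73, 4 rose and 3 fell in Hanhui3, and 3 rose and 3 fell in Huhan7B. Risen and fallen shares of all genes were 45.0% and 25.7% in Hanyou73, 35.1% and 18.4% in Hanhui3, and 21.2% and 32.1% in Huhan7B. A run of members on chromosome 12 showed 3 different patterns. Os12g0629600, described as a thaumatin-like protein, had 20.4, 17.6 and 13.5 FPKM in droughted and 6.92, 4.99 and 5.5 FPKM in watered Hanyou73. In Hanhui3 it had 12, 10.9 and 12.6 FPKM under drought and 9.08, 12.6 and 15.5 FPKM in water, ranges that overlapped. Huhan7B held 8.95, 7.01 and 11.1 FPKM under drought and 78.3, 76.3 and 82.9 FPKM in water. It rose by 1.41 ± 0.18 in Hanyou73 and fell by 3.02 ± 0.18 in Huhan7B, the pattern of OsPR1b (limma-trend adjusted p = 4.21e-06 and adjusted p = 1.26e-09). OsPR5 (Os12g0628600; the symbol is also given to a second gene ID) did likewise at a lower level, with 6.06, 7.37 and 5.66 FPKM in droughted and 2.29, 1.29 and 2.22 FPKM in watered Hanyou73 and with 2.73, 2.89 and 3.05 FPKM in droughted and 25.9, 25 and 22.3 FPKM in watered Huhan7B. It rose by 1.34 ± 0.23 in Hanyou73 and fell by 2.71 ± 0.23 in Huhan7B (limma-trend adjusted p = 9.55e-05 and adjusted p = 8.85e-08). In Hanhui3 it fell by 0.71 ± 0.23, with treatments that overlapped (limma-trend adjusted p = 0.0182).

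**Figure D5:**
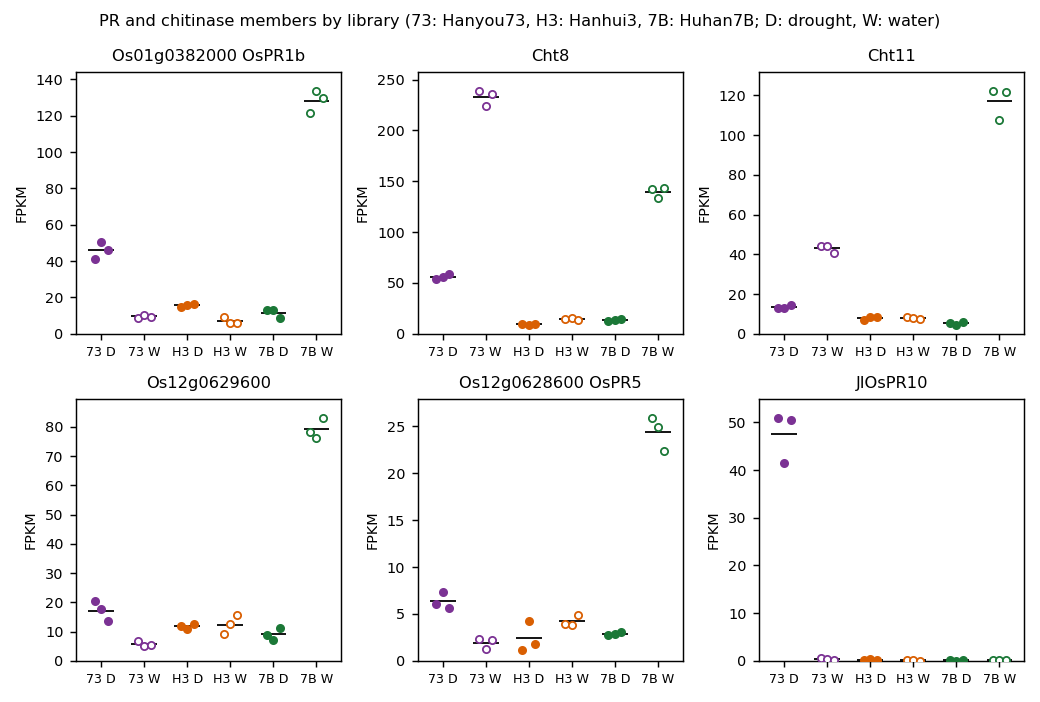
FPKM of 6 members in each library, with each panel on its own linear axis from 0; points are libraries (filled for drought, open for water) and lines are means of 3. OsPR1b, Cht11, Os12g0629600 and OsPR5 are highest in watered Huhan7B, Cht8 is highest in watered Hanyou73, and JIOsPR10 is at 41.4 to 50.9 FPKM in droughted Hanyou73 and at most 0.49 FPKM elsewhere.

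Os12g0630200, described as protein P21, had 29.8, 27.7 and 26.5 FPKM in droughted and 3.66, 3.9 and 3.99 FPKM in watered Hanyou73. In the parents it had 3.33, 3.45 and 1.97 FPKM in droughted and 2.52, 2.98 and 4.27 FPKM in watered Hanhui3, and 2.87, 4.38 and 4.96 FPKM in droughted and 0.66, 1.33 and 1.14 FPKM in watered Huhan7B. It rose by 2.58 ± 0.19 in Hanyou73 and 1.30 ± 0.19 in Huhan7B, and the Hanhui3 difference of -0.12 ± 0.19 did not pass the test (limma-trend adjusted p = 6.46e-09, adjusted p = 2.96e-05 and adjusted p = 0.624). TOND1 (Os12g0630100), known for tolerance of nitrogen deficiency in rice, fell in all 3 genotypes. It averaged 6.57 ± 0.361 FPKM in droughted and 13.6 ± 1.12 FPKM in watered Hanyou73, 7.09 ± 1.78 and 15.2 ± 1.68 FPKM in droughted and watered Hanhui3, and 4.78 ± 1.36 and 14.3 ± 2.4 FPKM in droughted and watered Huhan7B (SD, n = 3 each). The falls of 0.94 ± 0.17, 1.02 ± 0.17 and 1.42 ± 0.17 on the log2 scale, in that order, were each called (limma-trend adjusted p = 0.000139, adjusted p = 0.000117 and adjusted p = 3.74e-06). The hybrid minus parental-mean difference of 0.28 ± 0.21 did not pass the test (interval -0.17 to 0.72).

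Other thaumatin-like genes had other patterns. Os03g0244200 had 15.4, 16.6 and 14.2 FPKM in droughted and 16.1, 17.7 and 15.4 FPKM in watered Hanyou73, groups that overlapped. Hanhui3 held 26.5, 23.4 and 22.9 FPKM under drought and 6.58, 5.43 and 4.14 FPKM in water, and Huhan7B held 28.8, 27.6 and 32.1 FPKM under drought and 8.19, 8.42 and 8.16 FPKM in water. It rose by 2.00 ± 0.11 in Hanhui3 and 1.72 ± 0.11 in Huhan7B (limma-trend adjusted p = 8.57e-10 and adjusted p = 3.1e-09), and the hybrid's response lay 1.94 ± 0.14 below the parental mean (limma-trend adjusted p = 8.77e-09). Os09g0536400 averaged 19.3 ± 0.835 FPKM in droughted and 13.6 ± 1.24 FPKM in watered Hanyou73 and rose by 0.48 ± 0.07 there (limma-trend adjusted p = 2.55e-05), with differences of 0.06 ± 0.07 in Hanhui3 and -0.05 ± 0.07 in Huhan7B that did not pass the test.

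Os09g0498200 was one of the members that stood low in the hybrid. It had 0.95, 1.12 and 1.17 FPKM in droughted and 0.44, 0.49 and 1 FPKM in watered Hanyou73, 2.59, 3.14 and 2.76 FPKM in droughted and 6.58, 6.2 and 7.67 FPKM in watered Hanhui3, and 6.95, 8.14 and 6.55 FPKM in droughted and 4.69, 4.96 and 5.01 FPKM in watered Huhan7B. It fell by 1.03 ± 0.12 in Hanhui3 and rose by 0.48 ± 0.12 in Huhan7B (limma-trend adjusted p = 3.84e-06 and adjusted p = 0.00359), so the parents moved in opposite directions, and every hybrid library lay below every parental one. The gene was also called higher in Hanyou73, where the treatments overlapped.

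JIOsPR10 (Os03g0300400), the single PR-10 member and a gene named for its induction by jasmonate, was on in 1 group. It had 50.9, 41.4 and 50.4 FPKM in droughted and 0.49, 0.34 and 0.12 FPKM in watered Hanyou73. In Hanhui3 it had 0.11, 0.34 and 0.12 FPKM under drought and 0.11, 0.12 and 0 FPKM in water, and in Huhan7B 0.22, 0 and 0.23 FPKM under drought and 0.11, 0.11 and 0.21 FPKM in water. Its lowest droughted Hanyou73 library was at 41.4 FPKM, and no other library exceeded 0.49 FPKM. It entered the test only through droughted Hanyou73, so the calls that follow for that group are not independent of the filter. The log2 rise in Hanyou73 was 5.21 ± 0.13 (limma-trend adjusted p = 1.14e-14), and the parents' differences of 0.14 ± 0.13 in Hanhui3 and 0.00 ± 0.13 in Huhan7B did not pass the test (limma-trend adjusted p = 0.382 and adjusted p = 1.0). The hybrid's response exceeded the parental mean by 5.14 ± 0.16 (limma-trend adjusted p = 6.18e-13). In water the hybrid's difference from the mid-parent was 0.24 ± 0.11 (limma-trend adjusted p = 0.0698).

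The remaining members stood outside these classes. Os02g0147800, a pathogenesis-related homeodomain protein, is a DNA-binding protein in the set for its name and averaged 31.8 ± 1.55 FPKM in droughted and 36.5 ± 1.56 FPKM in watered Hanyou73. It fell by 0.19 ± 0.05 in Hanyou73 and 0.39 ± 0.05 in Huhan7B (limma-trend adjusted p = 0.00347 and adjusted p = 8.31e-06). Os01g0619800, described as chitinase domain-containing protein 1 after a frog protein, rose by 0.64 ± 0.11 in Hanyou73 and 0.40 ± 0.11 in Hanhui3 (limma-trend adjusted p = 0.000127 and adjusted p = 0.00772). Os01g0937200 was the only tested gene of the 12 with the Chitinase CLP description, 7 of which were at 0 in all libraries. Its domains are those of xylanase inhibitors, and it was called in 0 of the 3 drought responses by limma-trend, with levels of 1.81 to 4.17 FPKM over the 18 libraries and adjusted p of 0.14 in Hanyou73, 0.943 in Hanhui3 and 0.793 in Huhan7B.

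The study asked how the hybrid's response departs from that of its parents, and the difference in response itself was tested. Relative to the mean response of the parents, the hybrid's response was higher for 34 of the 55 members and lower for 6, where 38.8% of all genes were higher and 19.5% lower. The members' median difference was 0.69, beside 0.17 over all genes. Among the 25 members with a mean of at least 5 FPKM, 20 were higher and 1 lower, where 42.4% and 22.0% of all genes of that level were. The 1 lower of these 25 was Os03g0244200. JIOsPR10, Cht1-Chi1 and Cht2, which entered the test only through droughted Hanyou73, are among the 34, and JIOsPR10 is also among the 20. Os01g0127600, which entered only through droughted Hanhui3, is among the 6 lower members. These counts are therefore not independent of the filter. Between the parents, the response of Hanhui3 was higher than that of Huhan7B for 20 members and lower for 9, where 36.2% of all genes were higher and 17.1% lower. The share of members, 36.4% and 16.4%, was close to that of all genes.

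Levels under drought were compared next. Droughted Hanyou73 was higher than the mid-parent for 37 of the 55 members and lower for 8, where 58.4% of all genes were higher and 14.3% lower. Of the 11 family 19 chitinases 10 were higher, with a median difference of 2.03, and 1, Cht6, was lower. Called against each parent in the same direction, 27 members lay above both parents (beside 39.2% of all genes) and 3 below both (beside 7.83%). JIOsPR10, Cht1-Chi1 and Cht2, which entered the test only through droughted Hanyou73, are among those above. Against droughted Hanhui3 alone 30 members were higher and 15 lower, where 52.2% of all genes were higher and 15.9% lower, and against droughted Huhan7B 42 were higher and 5 lower, where 56.0% were higher and 16.0% lower. Against droughted Hanhui3 the Bowman-Birk inhibitors were 4 higher and 5 lower of 10, and the thaumatin-like genes 4 higher and 7 lower of 15. The farthest above the nearer parent were JIOsPR10 by 5.35, Oschib2 by 3.03, Cht4-t-Chi4 by 2.84 and Os12g0630200 by 2.54 on the log2 scale. The 3 below both parents were Cht6 by 1.18, Os09g0498200 by 0.88 and Os03g0244200 by 0.62.

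In water the hybrid was not displaced to one side. Watered Hanyou73 was higher than the mid-parent for 20 members and lower for 19, where 43.7% of all genes were higher and 23.5% lower. It lay above both parents for 15 members (beside 26.4% of all genes) and below both for 10 (beside 12.5%). The members farthest below were RBBI2-2 by 2.94, Cht6 by 2.49, Os09g0498200 by 1.86 and OSJNBb0081B07.13 by 1.68 on the log2 scale. The farthest above were Os01g0131900, a WIP1-type inhibitor, by 1.49, RBBI3-2 by 1.41, the thaumatin-like gene Os08g0548650 by 1.32 and the acidic endochitinase gene Os01g0303100 by 1.32. Os01g0131900 had 2.69, 2.55 and 4.91 FPKM in watered Hanyou73. Watered Hanhui3 held 0, 0 and 2.53 FPKM of it, and watered Huhan7B 0, 0 and 1.97 FPKM. The gene is listed at only 306 bases, so these values stand for few fragments and its place in this order is uncertain. Thaumatin-like genes were the class with most members under the mid-parent, 9 of 15, and 4 were above it.

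Between the parents, watered Hanhui3 was higher than watered Huhan7B for 14 members and lower for 18, where 25.3% of all genes were higher and 41.2% lower. The widest gaps were OsPR1b at -4.01 ± 0.15, Cht11 at -3.72 ± 0.09, RBBI2-2 at 3.52 ± 0.07 and C10728 at -3.37 ± 0.10 on the log2 scale of Hanhui3 minus Huhan7B, each with a limma-trend adjusted p of at most 1.65e-12. Under drought Hanhui3 was higher for 24 members and lower for 13, where 32.0% of all genes were higher and 26.9% lower. Bowman-Birk inhibitors made up 8 of those 24, among them Os01g0127600, which entered the test only through droughted Hanhui3. RBBI2-1 differed by 6.14 ± 0.12, IAI2 by 3.71 ± 0.26 and RBBI2-2 by 3.68 ± 0.07 (limma-trend adjusted p = 1.1e-15, adjusted p = 6.44e-09 and adjusted p = 4.6e-16), whereas OsPR1b differed by 0.43 ± 0.15 (limma-trend adjusted p = 0.0225).

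Some members were on in one genotype, at 1 FPKM or more in all 3 libraries, and off in another, under 0.1 FPKM in all 3. Os01g0127600, a Bowman-Birk inhibitor, had 7.63, 8.85 and 7.66 FPKM in droughted Hanhui3 and was listed at 0 in all 6 Huhan7B libraries. Under drought Hanyou73 held 0.87, 0.25 and 0 FPKM of it. Os07g0140232, described as PR-5 by its Arabidopsis relative, had 2.4, 4.51 and 2.75 FPKM in watered Hanyou73 and 6, 6.59 and 8.12 FPKM in watered Hanhui3 and was listed at 0 in watered Huhan7B. Os04g0165000, a thaumatin-like gene, had 3.78, 4.11 and 2.46 FPKM in watered Hanhui3 and was listed at 0 in watered Hanyou73, where drought brought 1.53, 1.76 and 2.22 FPKM. The thaumatin-like gene Os01g0220900 had 1.03, 1.24 and 1.1 FPKM in watered Huhan7B and at most 0.04 FPKM in watered Hanhui3, with 0.46, 0.45 and 0.52 FPKM in watered Hanyou73.

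Other defence genes were counted in the same way, and their counts stand beside the shares of all genes given above, 45.0% risen and 25.7% fallen in Hanyou73, 35.1% and 18.4% in Hanhui3, and 21.2% and 32.1% in Huhan7B. The lists were made by product name, so they can hold genes of a family that have no known part in defence. Of 35 tested genes described as glucan endo-1,3-beta-glucosidases (glucanases), the family of the PR-2 proteins, 18 rose and 10 fell in Hanyou73. In Hanhui3 13 of them rose and 6 fell, and in Huhan7B 11 rose and 7 fell. Of 48 tested peroxidases listed by name, the family of the PR-9 proteins, 24 rose and 12 fell in Hanyou73. In Hanhui3 14 of these rose and 7 fell, and in Huhan7B 10 rose and 8 fell. Of 27 tested genes of salicylate signalling, 9 rose and 14 fell in Hanyou73, 8 rose and 9 fell in Hanhui3, and 6 rose and 6 fell in Huhan7B. Their median log2 difference in Hanyou73 was 0.37 for the glucanases, 0.33 for the peroxidases and -0.29 for salicylate signalling, beside 0.18 over all genes. Of 9 tested germin-like proteins, 5 rose and 2 fell in Hanyou73, 3 rose and 2 fell in Hanhui3, and 2 rose and 2 fell in Huhan7B.

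The same shares of all genes stand beside the next counts. Of 16 tested inhibitors of other types, 5 rose and 7 fell in Hanyou73, 7 rose and 1 fell in Hanhui3, and 1 rose and 8 fell in Huhan7B. The cystatin Oc1, an inhibitor of cysteine proteases and the most abundant of them, averaged 1033 ± 29.3 FPKM in droughted and 1203 ± 53.1 FPKM in watered Hanyou73 (SD, n = 3 each) and fell by 0.22 (limma-trend adjusted p = 0.0215). Of 9 tested genes with chitin elicitor or LysM in their description, a list that holds the chitin receptors, 3 rose and 3 fell in Hanyou73. In Hanhui3 3 of them rose and 1 fell, and in Huhan7B 1 rose and 2 fell. CEBIP, which binds chitin fragments at the rice cell surface, averaged 24.0 ± 0.69 FPKM in droughted and 18.4 ± 1.26 FPKM in watered Hanyou73, and 10.4 ± 0.45 FPKM in droughted and 27.7 ± 1.43 FPKM in watered Huhan7B. It rose by 0.37 in Hanyou73 and fell by 1.34 in Huhan7B on the log2 scale (limma-trend adjusted p = 0.000204 and adjusted p = 2.17e-10). The receptor kinase OsCERK1 fell by 0.30 in Hanyou73 and 0.18 in Huhan7B and rose by 0.11 in Hanhui3 (limma-trend adjusted p = 1.17e-05, adjusted p = 0.00186 and adjusted p = 0.0384). The median over all genes was 0.18, -0.07 and 0.10 in that order, so the Hanhui3 rise was close to that of all genes.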

How the data were processed

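Polyadenylated RNA of flag leaves was sequenced from 18 libraries, per the labels, and groups were read from the genotype and treatment labels. The submitters' processing notes name fastp, HISAT2, StringTie, RSEM and DESeq2 and the build IRGSP-1.0; versions, settings and the handling of reads with several matches are not given in the sources used here. What the authors deposited is one FPKM value per gene and library. That unit is read from the values, as no header names it: they have 2 decimals, and their sum per library is 958893 to 1140989. Depth was estimated from how low values step in genes 700 to 1500 bases long, where 81.2% to 84.5% of values were whole fragments within 0.1, against 20% for evenly spread ones.

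Genes with an FPKM of at least 1 in at least 3 libraries were tested, after removal of 1017 genes of structural RNA, which made 22590 genes. The rule on product descriptions had 145 matches, of which 1 was excluded. limma 3.58.1 in R 4.3.3 (limma-trend) fitted 6 group means to log2(FPKM + 1), with two-sided p-values adjusted by Benjamini-Hochberg per contrast (threshold 0.05). Log2 values carry the moderated SE, differences on this scale understate the change of low genes, and intervals are 95% intervals of the fit. The mid-parent is the mean of the parents' log2 values, and the distance from the nearer parent has no SE. The code was tested on simulated data.

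Members were named by a rule: the 2 most abundant of each class, up to 6 called members per direction and contrast with a mean of at least 5 FPKM in the higher group, up to 4 outside both parents per direction and treatment, genes on in one genotype and off in another, and JIOsPR10, RBBI2-2 and Cht11. Members, lists and this rule were chosen with earlier results of these data known. PR1A, and members listed by name with a count, were named after their values were seen. Root markers matched no gene. A RefSeq gene table of another assembly, matched for 50 members, gave gene order only. Alternatives were a pseudocount of 0.1, no filter, a filter at 5 FPKM, median-ratio scaling, a replicate block, fits of the compared groups alone and leaving out each library.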

Additional observations from a re-analysis of the deposited data

Results flagged for a closer look

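For 19 members, in 22 comparisons, the drought response differed between genotypes by a test of the difference itself (limma-trend, Benjamini-Hochberg). They are the called members with the largest such differences in each direction, up to 6, and a mean of at least 5 FPKM in the highest group. Differences are in log2(FPKM + 1) with the SE of the fit.

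The hybrid's response exceeded the mean response of the parents for JIOsPR10 by 5.14 ± 0.16, for RBBI2-2 by 3.82 ± 0.08, for OsPR1b by 3.31 ± 0.18, for OsPR5 by 3.05 ± 0.29, for Os12g0629600 by 2.94 ± 0.22 and for Oschib1 by 2.80 ± 0.30. All 6 rose in Hanyou73, and 4 of them, OsPR1b, OsPR5, Os12g0629600 and Oschib1, fell in Huhan7B. The hybrid's response lay below the parental mean for Os03g0244200 at -1.94 ± 0.14, Os08g0548650 at -1.53 ± 0.33, OsPR1 at -1.34 ± 0.29 and Os01g0127600 at -1.15 ± 0.20.

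The response of Hanhui3 exceeded that of Huhan7B for OsPR1b by 4.44 ± 0.21, Cht11 by 4.22 ± 0.13, IAI2 by 3.84 ± 0.37, Os01g0127600 by 3.12 ± 0.23, RBBI2-1 by 3.06 ± 0.17 and Os12g0629600 by 2.98 ± 0.26. It lay below that of Huhan7B for Os09g0498200 at -1.50 ± 0.17, Os12g0630200 at -1.43 ± 0.27, Cht4-t-Chi4 at -1.04 ± 0.17, Os11g0703100 at -0.93 ± 0.30, Cht5 at -0.91 ± 0.22 and OsPR1-012 at -0.72 ± 0.23. The adjusted p of these 22 differences reached at most 0.0148. With a pseudocount of 0.1 the difference of Os01g0127600 from the parental mean and that of OsPR1-012 between the parents were not called. JIOsPR10 and Os01g0127600 entered the test only through droughted Hanyou73 and droughted Hanhui3, in that order.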

How the results depend on the processing

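The 22 counts of members were recomputed under each alternative, 526 values in all, of which 523 stayed within 1.5 times the count given. With a filter at 5 FPKM, which tests fewer members, 9 members rose in Huhan7B in place of 14. Droughted Hanyou73 lay below both parents for 5 members under median-ratio scaling in place of 3, and for 3 to 5 members when 1 library was left out, with 5 without replicate 3 of watered Hanhui3. The cause was not tested. Median-ratio scaling moved the median log2 difference of all genes from 0.18 to 0.03 in Hanyou73 and from 0.31 to 0.07 in droughted Hanyou73 against the mid-parent, and it turned round the direction of 0 calls of members. The medians of family 18 and family 19 chitinases, near 0 in several responses, changed sign with it. In Hanhui3 so did the median of the thaumatin-like genes, from 0.01 to -0.06, and the difference of the 1 tested Chitinase CLP-like gene, from 0.02 to -0.07.

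Replicate numbers did not pair the libraries: deviations of libraries with the same number correlated at -0.087 to 0.091 over 45 pairs. With the replicate block 36 members rose and 8 fell in Hanyou73, 22 rose and 10 fell in Hanhui3, and 13 rose and 16 fell in Huhan7B. Leaving out each library in turn gave 33 to 37 risen members in Hanyou73, 21 to 22 in Hanhui3 and 11 to 16 in Huhan7B. For single members, only the 104 called results by which they were named, the largest of each contrast, were recomputed. Other calls given above, many of them weaker, were not. Of the 2486 values for these 104 results, 2466 kept their call and 0 changed sign. Of the 20 calls lost, most were Os03g0244200 and Cht6 in droughted Hanhui3 against droughted Huhan7B, where the differences were -0.27 and -0.35. A pseudocount of 0.1 also took the call from Os01g0127600 for the hybrid minus the parental mean. It did the same to OsPR1-012 for the response of Hanhui3 minus that of Huhan7B, and to Os09g0498200 between the watered parents. Fits of the compared groups alone could not be made for the hybrid minus parental mean, which uses all groups.

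An FPKM under 1 stands for few fragments, so the order of members at such levels is limited by depth. For Os01g0131900, listed at 306 bases, higher values stand for few fragments too.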

Other observations

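The product-name rule took in 1 PR-10 gene, and 14 more genes carry the Bet v 1 domain of PR-10 proteins under other product names, such as pollen allergen. This list was added after the values were seen. Of 9 tested by limma-trend, 4 rose and 3 fell in Hanyou73, 3 rose and 2 fell in Hanhui3, and 2 rose and 5 fell in Huhan7B. Among all genes 45.0% rose and 25.7% fell in Hanyou73, 35.1% and 18.4% in Hanhui3, and 21.2% and 32.1% in Huhan7B. The most abundant 3 did not behave like JIOsPR10. OsPR10a averaged 232 ± 5.91 FPKM in droughted and 45.6 ± 2.37 FPKM in watered Hanyou73, 36.7 ± 0.79 and 26.9 ± 2.87 FPKM in droughted and watered Hanhui3, and 32.1 ± 4.83 and 394 ± 11.2 FPKM in droughted and watered Huhan7B (SD, n = 3 each). RSOsPR10 averaged 108 ± 5.37 FPKM in droughted and 33.1 ± 2.32 FPKM in watered Hanyou73, and 32.5 ± 4.46 and 407 ± 27.1 FPKM in droughted and watered Huhan7B. RPR10b averaged 48.5 ± 2.65 FPKM in droughted and 10.5 ± 1.48 FPKM in watered Hanyou73, and 6.47 ± 0.89 and 83.2 ± 3.79 FPKM in droughted and watered Huhan7B. All 3 rose in Hanyou73, by 2.32, 1.68 and 2.11 on the log2 scale in the order named, and fell in Huhan7B, with differences of -3.59, -3.61 and -3.50 and limma-trend adjusted p of at most 3.85e-08. In Hanhui3 all 3 rose too, by 0.44, 1.03 and 0.70 in the same order (limma-trend adjusted p of at most 0.00406).

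Of 11 defensin genes 1 was tested. DEFL8, a defensin-like gene, averaged 142 ± 13.3 FPKM in droughted and 1.57 ± 0.89 FPKM in watered Hanyou73, 41.8 ± 2.14 and 0.42 ± 0.47 FPKM in droughted and watered Hanhui3, and 6.67 ± 1.90 and 0.27 ± 0.01 FPKM in droughted and watered Huhan7B (SD, n = 3 each). It rose in all 3 genotypes, by 5.84, 4.96 and 2.57 on the log2 scale (limma-trend adjusted p of at most 2.37e-07). The germin-like gene Osoxo4 averaged 164 ± 6.21 FPKM in droughted and 40.2 ± 2.26 FPKM in watered Hanyou73 and rose in all 3 genotypes, by 2.00, 1.54 and 2.23.

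Droughted Hanyou73 was the group with the highest mean for many genes. Among the 55 tested members 22 were highest there (40.0%, beside 35.1% of all genes tested), and among the 25 with a mean of at least 5 FPKM 9 were (36.0%, beside 34.9% of all genes of that level). Of these 25 members, 7 were highest in watered Huhan7B (28.0%, beside 17.6%).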
